A study of Homo sapiens with 2 samples.

Results

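The regions described here are the peaks of CRTC2-associated RNA that lay in the last exon of a protein-coding transcript. They were chosen from the annotation column of the authors' peak list, as coding-transcript exon peaks whose exon number equals the number of exons, in transcripts of 2 or more exons. The exon number is that of the transcript named there. Where this is a short transcript, its last exon can lie inside a longer transcript of the gene. Peaks wider than 10 kb, peaks on alternative or unplaced contigs and mitochondrial peaks were left out. This gave 3043 of 175546 peaks (1.73%), in 2113 genes and 2134 transcripts. The rule used no measured value. CRTC2 is a transcriptional coactivator that works with CREB. It had been immunoprecipitated with its RNA (RIP-seq) from HCCLM3 cells, an established human line of hepatocellular carcinoma labelled as wild type, and input RNA was sequenced from the same line. Neither group carries a named allele, agent or time point. There was 1 RIP library and 1 input library and no precipitation with a control antibody, so RNA bound to CRTC2 and RNA carried over cannot be told apart, and no value has a replicate check.

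The last exon of an mRNA normally holds the end of the reading frame, the stop codon and the 3′ UTR. N6-methyladenosine (m6A), the mRNA mark that YTHDF2 reads, is known to be concentrated near stop codons and in long exons, and exon junction complexes keep it away from splice junctions. The series concerns condensates that CRTC2 forms with YTHDF2, a reader that can direct marked mRNAs to decay. In the list, 3′ UTR peaks form a class of their own, so last exon peaks are those that were not called 3′ UTR. Of 2283 last exon peaks whose transcript has its ends in the list, 0 reached the transcript's 3′ end, and the nearest edge lay 47 bp from it. The 0 follows from the classes, since the end of a coding transcript normally lies in its 3′ UTR. Their position relative to the stop codon was not analysed here.

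The fold of a peak is the authors' value, a linear ratio at the summit, which is read here as RIP over input, since the list does not name its control. Each peak's fold and p together gave the number of RIP fragments at the summit. They also gave the input level set against that number, in fragments on the RIP scale. That level need not be a count of input fragments at the summit. Low levels, down to 0.0298 in the list, may be averages over a wider stretch. An interval after a fold is the exact Poisson 95% interval of the RIP fragments at a fixed input level. An interval after a share is the exact Clopper-Pearson 95% interval. Both cover counting error only, and peaks of one transcript are not independent. The q is the authors' p adjusted over the list, and a peak is called where it is at most 0.05, a −log10 q of at least 1.3.

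Sequence could be read for 7 last exon peaks, those that lie wholly inside a 300-base window at the start of another gene, taken from RefSeq (GRCh38.p14). They were chosen for that reason alone, none is at q of at most 0.05, and 4 are shown so that the kind of sequence under these peaks can be seen. Each is written 5′ to 3′ on the strand of the exon's transcript, and capitals mark GGAC, the core of the commonest m6A motif. FAF1, which encodes a ubiquitin-binding adaptor, has the highest fold of the 7. USP6NL encodes a RAB5 GTPase-activating protein, ZNF473 a zinc finger protein of histone mRNA processing, and PRKAA1 a catalytic subunit of AMPK, a kinase that phosphorylates CRTC2.
FAF1: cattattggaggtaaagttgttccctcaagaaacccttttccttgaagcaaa
USP6NL: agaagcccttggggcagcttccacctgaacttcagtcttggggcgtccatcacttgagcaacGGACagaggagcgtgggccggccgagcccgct
ZNF473: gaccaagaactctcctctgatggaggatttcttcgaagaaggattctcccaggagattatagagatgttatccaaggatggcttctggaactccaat
PRKAA1: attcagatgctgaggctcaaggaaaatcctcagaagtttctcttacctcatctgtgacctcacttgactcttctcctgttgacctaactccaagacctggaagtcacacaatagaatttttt

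The FAF1 peak (hg38 chr1:50441447-50441498, minus strand, exon 19 of 19) had 6 RIP fragments and a fold of 3.09 (1.41 to 6.20). The USP6NL peak (chr10:11463735-11463828, minus strand, exon 15 of 15) had a fold of 2.65 (1.16 to 5.59) on 5. The ZNF473 peak (chr19:50044680-50044776, plus strand, exon 5 of 5) stood at 1.76 (0.714 to 4.31) on 3, and the PRKAA1 peak (chr5:40762817-40762938, minus strand, exon 9 of 9) at 1.64 (0.865 to 2.89) on 10. GGAC and GGACT, which contains it, were searched on both strands of the 7 peaks. GGAC was found on the exon's strand in 2 peaks, those of USP6NL and BTBD9, and on the other strand in 1, and GGACT was in 0 on either strand. Of 35116 RefSeq start windows, 29.1% held GGAC in their first 94 bases, the length of the USP6NL peak, and 8.44% held GGACT. Each window begins 250 bases before a gene's start, so these bases lie upstream of it. They are no matched background for the RNA of last exons.

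Last exon peaks had about the same typical fold as other peaks, and few were high. The median fold was 2.02 (quartiles 1.76 and 2.51, range 1.38 to 5.38), against 1.98 (1.76 and 2.64, at most 12.7) in 45607 internal exon peaks of coding transcripts and 1.92 (1.76 and 2.45, at most 19.4) in 23593 3′ UTR peaks, under the same limits on width and contigs. The median number of fragments under their summits was 3 (quartiles 2 and 6, at most 30), against 4 in internal exons and 3 in 3′ UTRs. A single fragment carried 18.3% of them, against 12.1% of internal exon peaks and 27.8% of 3′ UTR peaks. At least 5 fragments were found at 1140 summits (37.5%, 35.7 to 39.2). That share was 46.1% (45.6 to 46.5) in internal exons, 28.2% in 3′ UTRs and 23.4% in the whole list. The input level had a median of 0.746, against 1.27 in internal exons and 0.634 in 3′ UTRs. The median width was 112 bp, with 98 and 134 bp in the other classes.

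Of the last exon peaks, 27 were called at the q limit, or 0.887% (0.586 to 1.29), and 1.63% of all peaks in the list reached it. The share was 3.03% (2.87 to 3.19) in internal exons and 0.903% (0.786 to 1.03) in 3′ UTRs. The interval of the last exon share thus overlapped that of 3′ UTRs and lay below that of internal exons. A fold of at least 4 was seen in 40 last exon peaks of 37 genes, or 1.31% (0.941 to 1.79), with 1.63% over the whole list and 3.42% in internal exons. Of these 40, 18 were also at q of at most 0.05. Last exon peaks made up 6.25% (6.04 to 6.47) of 48676 coding exon peaks but 1.92% (1.27 to 2.78) of the 1408 at this q.

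The gap to internal exons was found at low input levels. Below an input level of 1, the q limit was reached by 0.791% (0.422 to 1.35) of 1644 last exon peaks and 5.33% (5.02 to 5.64) of 20629 internal exon peaks, and by 0.945% of 15236 3′ UTR peaks. Within that range it was 1.64% against 8.05% at input levels under 0.2, 0.238% against 6.04% from 0.2 to under 0.5, and 0.445% against 2.46% from 0.5 to under 1. From 1 to under 2 the shares were 1.04% (0.419 to 2.13) and 1.76% (1.51 to 2.03), and from 2 to under 4 they were 1.5% (0.552 to 3.24) and 0.727% (0.545 to 0.949), with overlapping intervals. At an input level of 4 or more they were 0.307% and 0.651%. The lowest input level in the list, 0.0298, stood under 0.164% of last exon peaks and 1.45% of internal ones. Low levels may be averages over the surroundings of a peak, so they need not be the input at its summit. The part of the input level in the difference between the classes was not tested.

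**Figure D1:**
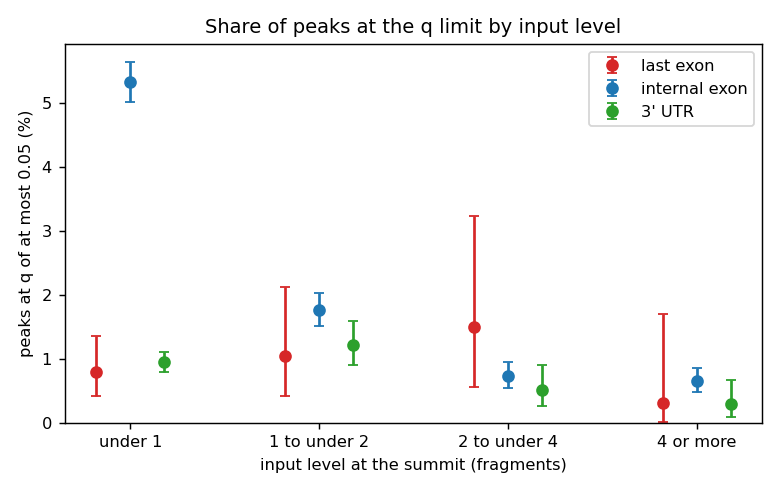
Share of peaks at q of at most 0.05 (%, vertical axis) by input level set against the summit (fragments on the RIP scale, horizontal axis) for last exon, internal exon and 3′ UTR peaks. Low levels may be averages over a wider stretch. Bars are exact Clopper-Pearson 95% intervals. Below an input level of 1 internal exons stood at 5.33% and last exons at 0.791%, while the intervals of last and internal exons overlap in the other ranges.

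The share at the q limit was also set out by the number of exons in the transcript. Last exon peaks came from transcripts with a median of 6 exons, internal exon peaks from transcripts with a median of 18. In transcripts of 3 to 5 exons the share at the q limit was 0.568% (0.209 to 1.23) in last exons and 2.34% (1.66 to 3.20) in internal exons. In transcripts of 6 to 10 exons it was 1.13% (0.544 to 2.07) and 2.37% (2.04 to 2.73), whose intervals just overlap, and in those of 11 to 20 exons 0.859% (0.280 to 1.99) and 2.86% (2.62 to 3.12). In transcripts of 21 or more exons it was 2.31% (0.851 to 4.95) and 3.50% (3.24 to 3.77), with overlapping intervals. In transcripts of 2 exons, 0 of 261 last exon peaks reached it (upper bound 1.40%). Counted back from the 3′ end in transcripts of at least 12 exons, the share was 1.38% (0.665 to 2.53) in the last exon, 3.18% (2.41 to 4.11) in the exon before it and 3.69% (2.91 to 4.62) in the one before that.

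Under the same limit on p, last exon and internal exon peaks of the same transcript had nearly the same typical fold. Near-equal medians are partly set by that limit. In 1400 transcripts with peaks in both, the median fold of the last exon was higher in 669 (47.8%, 45.1 to 50.4), lower in 705 and equal in 26. The median log2 ratio of last over internal was -0.01 (quartiles -0.27 and 0.28). RIP fragments were more numerous in the last exon in 626 transcripts and fewer in 556. In these same transcripts the q limit was reached by 19 of 1822 last exon peaks, or 1.04% (0.629 to 1.62), and by 248 of 7825 internal exon peaks, or 3.17% (2.79 to 3.58). Over these peaks the median input levels were 1.14 in last and 1.27 in internal exons. With 1 median per transcript the order was the other way, at 1.27 and 0.95. The highest fold per transcript was higher in the last exon in 25.6%, but a transcript held a mean of 1.3 last exon peaks and 5.59 internal ones. DYRK4 (a protein kinase gene) had the largest ratio, with a fold of 5.01 in its last exon and 1.76 in its 1 internal exon peak. SPRED1, which encodes an inhibitor of RAS-MAPK signalling, stood at 4.41 and a median of 1.76. Large ratios the other way were found in UGT1A8, a glucuronidation enzyme gene, with 1.79 in its last exon and a median of 4.90 in internal exons, and in SYBU, with 1.67 and 4.41. The UGT1A genes share exons, so neither the last nor the internal exon peaks of UGT1A8 can be given to one of them.

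**Figure D2:**
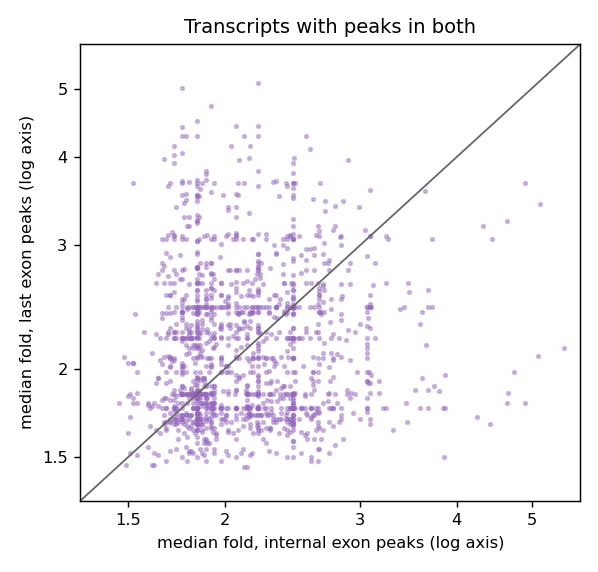
Median fold of last exon peaks (vertical, log axis) against median fold of internal exon peaks (horizontal, log axis) in 1400 transcripts, 1 point each; the line marks equal folds. The points lie on both sides of the line, 669 above it and 705 below.

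The 27 called peaks came from 26 genes. Their folds ran from 3.42 to 5.38 (median 4.41) on 3 to 20 RIP fragments (median 9), and 13 stood at input levels under 1. SSH2 was just inside the limit (−log10 q 1.32) and ADNP just outside it (1.29). Every pair of neighbours in the order of folds had overlapping intervals. The gene that the list assigned to the peak, by its nearest start site, had another gene ID for 16 of the 27, in 1 case (ZNF532) with no symbol. Over all last exon peaks it matched the exon's gene in 51% (49.2 to 52.8), and in internal exons in 55.2% (54.7 to 55.6).

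The genes are given in an order chosen after they were seen, by what each is known to do, which is no test of a theme. ZNF469, a very large zinc finger protein gene tied to corneal fragility, had the highest fold and the highest −log10 q (3.06). Its peak in exon 3 of 3 (chromosome 16, 88437655 to 88439312) reached 5.38 (2.98 to 9.10) on 12 fragments, and its other 5 last exon peaks had folds from 1.76 to 3.97. The deposited symbol for that peak is ZFPM1. IKZF2, which encodes the lymphoid transcription factor Helios, had 1 last exon peak (exon 8 of 8, chromosome 2, 213007512 to 213007763), at 5.27 (2.31 to 11.1) on 5 fragments. KAT6A, a histone acetyltransferase gene, carried 3 peaks in exon 17 of 17. The one at q of at most 0.05 stood at 3.96 (2.43 to 6.13) on 18 fragments, and a neighbour with a higher fold of 4.20 on 7 fragments did not reach it.

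The histone demethylase gene KDM2A (3.96, 13 fragments, exon 21 of 21) and MORF4L2, a subunit of a histone acetyltransferase complex (3.42, 2.15 to 5.19, 20 fragments, exon 4 of 4), were also among the 26 genes. MORF4L2 had the most fragments of the 27. HCFC2, a relative of the cell cycle coregulator HCFC1, stood at 4.43 (1.85 to 9.95) on 4 fragments. ZNF532 (4.14, 11 fragments) and ZNF460 (3.96, 13 fragments) are zinc finger genes. The peak annotated to ZNF660-ZNF197 (4.90, 2.33 to 9.44, chromosome 3, 44641928 to 44641972) lies on a read-through transcript. It overlaps ZNF197 and the antisense gene ZKSCAN7-AS1, so its reads cannot be given to one of them.

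MAST4, a microtubule-associated kinase gene, reached 5.10 (2.23 to 10.8) with 5 fragments (exon 29 of 29, chromosome 5, 67165732 to 67166169), and its other 6 last exon peaks had folds of 1.64 to 2.76. DYRK4 had a fold of 5.01 (2.19 to 10.6) and 5 fragments, at 4613561 to 4613723 of chromosome 12, exon 15 of 15. SSH2, a phosphatase gene of the actin regulator cofilin, stood at 4.63 on 6 fragments. PEAK1, a pseudokinase gene of the cytoskeleton, stood at 4.4 on 4 fragments. SPRED1 (4.41, 9 fragments) was the gene among these 26 with a 3′ UTR peak at the q limit as well, counting 3′ UTR peaks by the assigned gene. WNK1, a kinase gene of ion transport, stood at 3.54 (2.11 to 5.62) on 16 fragments in exon 26 of 26. KBTBD2, an adaptor of CUL3 ubiquitin ligase, had 12 fragments and a fold of 4.48 (2.48 to 7.57), at 32870715 to 32870856 of chromosome 7, exon 4 of 4.

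GAPVD1, which encodes an exchange factor for RAB5, had 6 fragments and a fold of 5.10 (2.33 to 10.2), at 125362638 to 125362707 of chromosome 9, exon 28 of 28. BICD2, a dynein adaptor gene, stood at 4.14 on 11 fragments, and RABGAP1L, a GTPase-activating protein gene for RABs, at 3.78 (1.53 to 9.22) on 3. PAM, whose enzyme amidates secreted peptides, had 4 fragments and a fold of 4.72 (1.97 to 10.6), at 103028730 to 103029039 of chromosome 5, exon 27 of 27, with the second highest −log10 q, 2.92. The ubiquitin ligase gene RNF103, of the endoplasmic reticulum, stood at 3.54 on 16 fragments in a peak that also overlaps the read-through gene RNF103-CHMP3 and the antisense gene CHMP3-AS1.

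The others were GBP1, an interferon-induced GTPase gene (4.50, 1.88 to 10.1, 4 fragments, exon 11 of 11, chromosome 1, 89053375 to 89053448), the giant-protein gene AHNAK2, C6orf62 (3.96) and DIS3L2. DIS3L2, an exonuclease gene for uridylated RNA, stood at 3.78 (1.53 to 9.22) on 3 fragments in exon 7 of 7. Its other last exon peak, at 1.82, lies in another transcript. The GBP1 peak also overlaps the RefSeq gene LOC105378841. Of the 26 genes, 19 also had internal exon peaks, and 4 had one at the q limit, namely SSH2, ZNF532, KAT6A and WNK1. IKZF2, ZNF469, ZNF460, ZNF660-ZNF197, C6orf62, RNF103 and MORF4L2 had no internal exon peak in the list.

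**Figure D3:**
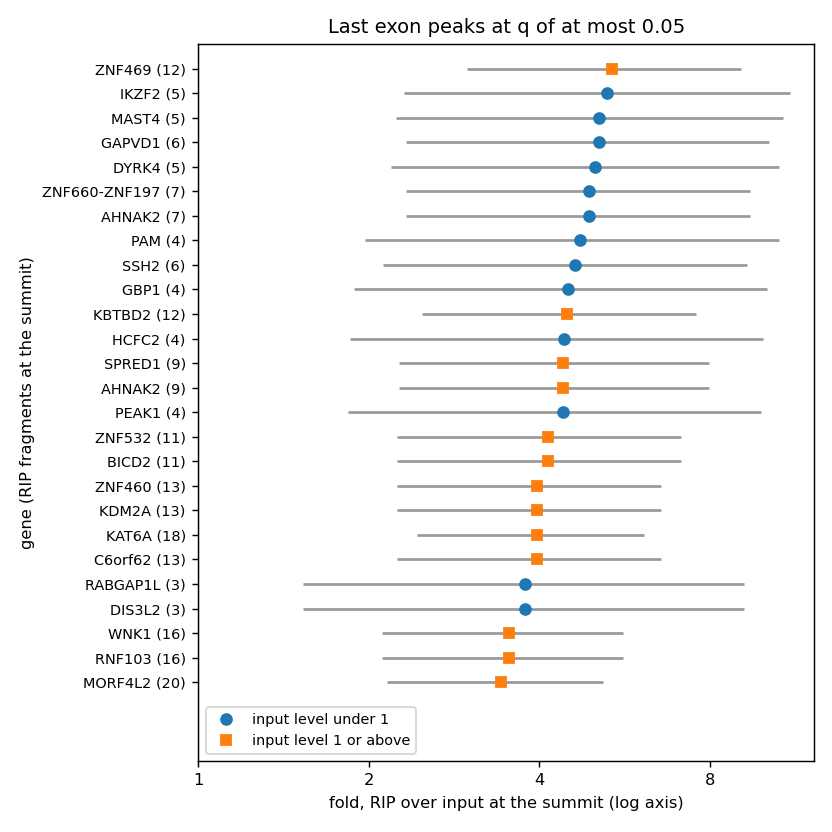
Fold of RIP over input (horizontal, log axis) of last exon peaks at q of at most 0.05 in the 25 of 26 genes described, by gene, with the RIP fragments at the summit in brackets; bars are exact Poisson 95% intervals at a fixed input level and the marker shows whether the input level was under 1. Folds run from 3.42 in MORF4L2 to 5.38 in ZNF469, and the bars of neighbours overlap.

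Most genes had 1 last exon peak, and a few long last exons held many. A single peak was found in 1605 genes (76.0%), 2 in 306, 3 or 4 in 158 and 5 or more in 44. AHNAK, which encodes a giant scaffold protein of the membrane skeleton, held 25 peaks in exon 5 of 5, spread from 1366 to 17989 bp before the transcript's 3′ end with a median spacing of 619 bp. Their folds ran from 1.62 to 3.21 (median 2.27) on 8 to 19 fragments. None of the 25 reached the q limit, and the highest stood at −log10 q 1.18. Its relative AHNAK2 held 19 peaks in exon 7 of 7, from 1730 to 17408 bp before the end. Their folds ran from 1.68 to 4.90 (median 2.97) on 2 to 17 fragments. A fold of at least 3 was found in 8 of the 19 AHNAK2 peaks and in 1 of the 25 AHNAK peaks. The AHNAK2 peaks at the q limit lay 4146 bp before the end (4.90, 2.33 to 9.44, 7 fragments) and 11607 bp before it (4.41, 2.26 to 7.98, 9 fragments). Input levels ran from 0.554 to 6.34 in AHNAK2 and from 2.89 to 9.50 in AHNAK, and their part in the difference was not tested. Both proteins are built of repeated units, so the place of a read within these exons is uncertain.

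Another 4 genes held 10 peaks each. APC, the scaffold that marks beta-catenin for breakdown, ranged from 1.48 to 3.53, and the zinc finger gene ZNF292 from 1.66 to 3.56. The RAB27 effector gene EXPH5 ranged from 1.98 to 4.28, and the transcription factor gene USF3 from 1.68 to 2.65. None of these 40 peaks reached the q limit. EPPK1, the epiplakin gene, held 9 peaks on 1 fragment each with folds of 1.67 to 1.91. PLEC, which encodes the cytoskeletal linker plectin, held 6 peaks on 14 to 28 fragments with folds of 1.55 to 1.98. With the pseudocount of 1, a peak on 1 fragment cannot exceed a fold of 2, so the folds of these 2 genes cannot be compared.

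**Figure D4:**
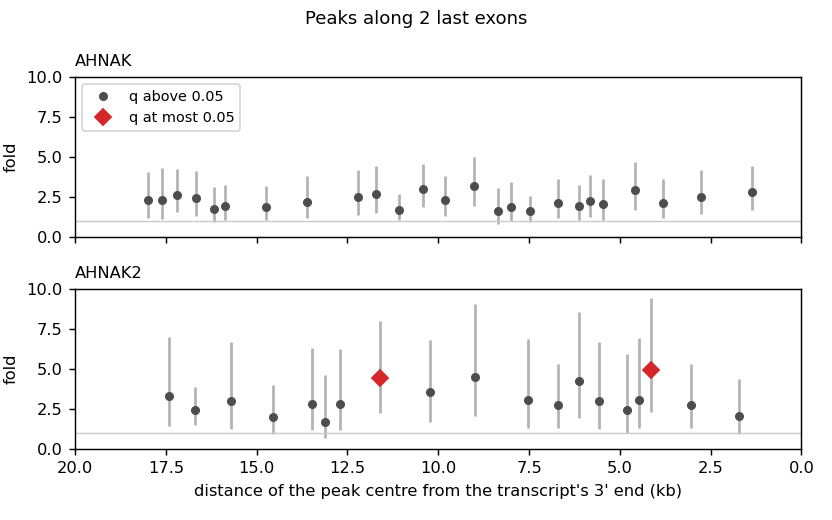
Fold of each last exon peak (vertical) against the distance of its centre from the transcript's 3′ end in kb (horizontal) in AHNAK and AHNAK2; bars are exact Poisson 95% intervals, and diamonds mark q of at most 0.05. Peaks are spread along the whole range, with 25 and 19 peaks and median folds of 2.27 and 2.97.

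Over all 2283 located peaks, the centre lay a median of 2534 bp (quartiles 1402 and 4304) before the transcript's 3′ end. This distance normally includes the 3′ UTR, whose peaks are a class of their own. Folds were somewhat higher farther from the end. The median fold was 1.89 (1.84 to 2.01) within 1 kb of the end, 1.98 (1.89 to 2.07) from 1 to 3 kb, 2.15 (2.07 to 2.22) from 3 to 5 kb and 2.21 (2.09 to 2.29) beyond 5 kb, with binomial intervals of the median. With 1 value per gene in each range the medians were 1.92, 1.98, 2.13 and 2.21. The shares at the q limit were 0.268%, 0.937%, 0.980% and 1.59%, and the interval of the first (0.00679 to 1.48) overlapped that of the last (0.643 to 3.26). RIP fragments at the summit had medians of 3, 3, 4 and 4, and input levels 0.746, 0.707, 1.07 and 0.962. The part of depth in the order of folds was not tested.

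Zinc finger genes, counted as symbols beginning with ZNF, ZFP, ZSCAN, ZKSCAN or ZBTB, were common among the genes with a last exon peak. Most of these proteins bind DNA through arrays of zinc fingers, which in the KRAB family are usually encoded by the last exon. They numbered 295 of 2113 genes (14.0%, 12.5 to 15.5), against 215 of 8026 genes with an internal exon peak (2.68%, 2.34 to 3.06) and 612 of 20052 protein-coding genes (3.05%). Last exon peaks were found in 48.2% of the 612. They held 621 of the 3043 last exon peaks (20.4%), and 1.39% of internal exon peaks. Chromosome 19, which carries large zinc finger clusters, held 132 of the 295 genes (44.7%) and 90 of the other 1818 (4.95%). No internal exon peak was listed for 158 of the 295 (53.6%), against 27.0% of the other genes.

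Under the same limit on p, the folds of zinc finger peaks were those of other last exons. The median was 2.02 (quartiles 1.76 and 2.55) in zinc finger genes and 2.02 (1.76 and 2.51) in the others. The q limit was reached by 4 of 621 (0.644%, 0.176 to 1.64) and 23 of 2422 (0.95%, 0.603 to 1.42). The depth was lower, with at least 5 fragments at 23.0% (19.8 to 26.5) of summits against 41.2% (39.2 to 43.2), and input levels of 0.634 and 0.962. Zinc finger genes on the same chromosome are close paralogs, so reads in their finger arrays can be of uncertain origin.

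**Figure D5:**
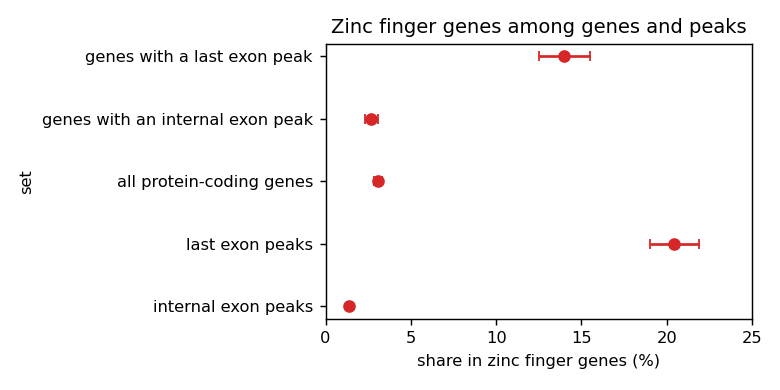
Share of zinc finger genes (%, horizontal axis) among the genes or peaks named on the vertical axis; bars are exact Clopper-Pearson 95% intervals. The share was 14.0% of genes with a last exon peak and 2.68% of genes with an internal exon peak.

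The transcripts of the 2 proteins that the series is about had no last exon peak. CRTC2 had 6 internal exon peaks in transcripts of 14 exons, none beyond exon 11, and 0 assigned 3′ UTR peaks. YTHDF2 had 4 internal exon peaks, up to exon 5 of 6, and 10 assigned 3′ UTR peaks with folds up to 2.91. Beside these, 2113 genes with a last exon peak stood against 20052 protein-coding genes (10.5%), 26 of them with a peak at the q limit, and their highest folds had a median of 2.16. An internal exon peak was found for 8021 of the 20052 (40.0%), and one at the q limit for 1055 (5.26%). The 20052 were not limited to genes expressed in these cells.

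Of 23 m6A writers, erasers and readers, 5 had a last exon peak (21.7%, with 10.5% over all genes). An internal exon peak was found for 21 (91.3%, with 40% over all genes). At the q limit, 0 had a last exon peak and 4 an internal one (17.4%, with 5.26% over all genes). The writer adaptor WTAP stood at 3.53 (1.68 to 6.80) on 7 fragments, the writer METTL16 at 2.74 (1.15 to 6.16), the demethylase ALKBH5 at 2.32 (1.15 to 4.31) and the ubiquitin ligase-like writer subunit CBLL1 at 1.98 (1.18 to 3.14). The median of the 5 was 2.32. None of the YTH readers was among the 5, the last of which was METTL14 (1.68).

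Of 22 CREB and CRTC signalling genes, 7 had a last exon peak (31.8%, with 10.5% over all genes). An internal one was found for 19 (86.4%, with 40% over all genes). The phosphodiesterase gene PDE4D stood at 3.06 (1.28 to 6.88) on 4 fragments, and the acetyltransferase coactivators EP300 and CREBBP at 2.97 (1.80 to 4.65) on 17 fragments and 2.83 (1.74 to 4.39) on 18. CRTC3 stood at 2.45 (0.991 to 5.98) on 3 fragments in its last exon, while its internal exons reached 6.05. The median of the 7 was 2.45, and 0 reached the q limit. Of 20 CREB and CRTC target genes 2 had a last exon peak (10%, close to the 10.5% over all genes). They were FOSB (1.76) and the clock gene PER1 (1.73), each on 1 fragment.

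Of 20 widely studied m6A-modified mRNAs, 3 had a last exon peak (15%, with 10.5% over all genes). They were CREBBP, NOTCH1 (2.39, 0.990 to 6.55, 2 fragments) and MYC (1.47, 0.937 to 2.22, 21 fragments). Of 13 Notch pathway genes 6 had one (46.2%, with 10.5% over all genes, median 2.63). The coactivators MAML3 (3.0), MAML1 (2.97) and MAML2 (2.87), on 4, 5 and 3 fragments, were followed by NOTCH1, NOTCH2 (2.19) and the DNA-binding partner RBPJ (1.64). None of the 6 was at the q limit in its last exon. An internal exon peak was found for 8 of the 13 (61.5%, with 40% over all genes). At the q limit 3 had an internal one (23.1%, with 5.26% over all genes).

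Of 27 liver cancer genes, 9 had a last exon peak (33.3%, with 10.5% over all genes, median 2.45), 0 of them at the q limit. An internal exon peak was found for 21 (77.8%, with 40% over all genes). At the q limit 6 had an internal one (22.2%, with 5.26% over all genes). In last exons, the order was as follows. The WNT pathway scaffold APC stood at 3.53 (1.68 to 6.80) on 7 fragments, the chromatin remodelling subunit ARID1A at 3.11 (1.64 to 5.49) on 10 and TSC1, an inhibitor of mTOR signalling, at 2.72 on 3. The APC partner AXIN1 had 1.67 (0.794 to 3.21) in its last exon, while an internal exon reached 5.73. Of 30 lenvatinib targets and receptor kinase signalling genes, 2 had a last exon peak (6.67%, with 10.5% over all genes). ERBB3 stood at 1.82 on 1 fragment and MET at 1.66 (1.12 to 2.37) on 28 fragments. Their exons were 3 of 3 and 12 of 12, while the genes had 11 and 15 internal exon peaks. The named transcripts may thus be short ones. An internal exon peak was found for 19 of the 30 (63.3%, with 40% over all genes).

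Of 40 chromatin regulators, 13 had a last exon peak (32.5%, with 10.5% over all genes, median 2.55) and 0 reached the q limit there. An internal exon peak was found for 39 (97.5%, with 40.0% over all genes), and 19 had one at that limit (47.5%, with 5.26% over all genes). The methyltransferase family genes KMT2E and NSD1 stood at 3.53 (1.62 to 7.09) and 3.36 (1.47 to 7.09), ARID1A at 3.11 and ARID1B at 3.06. In internal exons NSD1 reached 6.12 and KMT2E 4.58. Of 32 P-body and stress granule genes 4 had a last exon peak (12.5%, close to the 10.5% over all genes, median 2.85). They were the silencing factor TNRC6B (3.19), the deubiquitinase USP10 (3.06), the exonuclease XRN1 (2.64) and the decapping enhancer EDC3 (1.5). None was at the q limit, and 30 of the 32 had an internal exon peak (93.8%, with 40.0% over all genes).

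Of 22 genes listed for a long last coding exon, 17 had a last exon peak (77.3%, with 10.5% over all genes, median 2.83). These were all but ASXL3, SALL2, SALL4, TSHZ2 and TSHZ3, and AHNAK2 reached the q limit. The list was picked for that feature, with earlier results of these data known. Its high share is thus partly set by the choice and is no test. ZNF292 stood at 3.56, and APC and the transcription factor gene TSHZ1 at 3.53 each. The 17 held 95 last exon peaks. An internal exon peak was found for 14 of the 22 (63.6%, with 40% over all genes). TRIM genes encode ubiquitin ligases with their C-terminal domain often in the last exon. Of 27 such genes, 8 had a last exon peak (29.6%, with 10.5% over all genes, median 2.07). TRIM56 (3.37), TRIM32 (2.83), TRIM65 (2.45) and TRIM4 (2.26) were highest. An internal exon peak was found for 18 of the 27 (66.7%, with 40% over all genes). Hepatocyte genes had a last exon peak in 3 of 20 (15%, with 10.5% over all genes). They were APOB (2.45, 3 fragments) and, on 1 fragment each, APOH (1.85) and FGA (1.84). Markers of other cell types had one in 0 of 15 blood and immune genes and 0 of 13 stellate, endothelial and fibroblast genes. Of 10 neuronal genes 2 had one (20%), TUBB3 (2.01) and SYT1 (1.84). With 10.5% over all genes, counts from lists this small do not tell cell types apart.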

How the data were processed

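One peak list of the RIP and input libraries was analysed. The submitters' processing notes name HISAT2, MACS2 and hg38. Their versions and parameters were not given in the sources used here. For each peak, the deposited fold is a linear ratio, and the deposited −log10 p and −log10 q columns, whose headers were spoiled, were identified by place and values. The deposited score was not used. The list starts at a −log10 p of 1.30. With a pseudocount of 1, a whole number of RIP fragments met fold and −log10 p within 0.001 for 100% of peaks, and a single number for 96.3% of last exon peaks; the closest was taken otherwise. The recovery was tested on data simulated with the same formula for fold and p. That checks the calculation only, not what the deposited values measure. Library totals were not in the sources used here.

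Symbols came from RefSeq (GRCh38.p14), which held 2112 of 2113 genes. Of the last exon peaks, 12.0% overlapped another RefSeq gene, and peaks carry no strand. With 1 library per group no test was run. Left out were 9 peaks on contigs, 6 wider than 10 kb (the narrowest 10733 bp, the widest kept 7807 bp) and 5 of single-exon transcripts. Named were CRTC2, YTHDF2, the 10 genes of highest fold and the 10 of highest −log10 q among peaks at q of at most 0.05, the 5 with most peaks (7 with ties), and up to 4 per list, except some not reported here; other genes at the q limit, EPPK1, PLEC and further list members were added after their values were seen. The members, lists and limits were chosen with earlier results of these data known. Alternatives were limits on q, fragments and width, other gene assignments and wider membership. Python 3.11.15, pandas 2.3.3, NumPy 2.4.6, SciPy 1.17.1 and matplotlib 3.10.9 were used.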

Additional observations from a re-analysis of the deposited data

How the results depend on the processing

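Limits on q and fragments select higher peaks, so the values shift by construction. At q of at most 0.05, at least 5 fragments, and where the exon's gene is also the assigned gene, the 3043 peaks became 27, 1140 and 1552, and the 2113 genes 26, 881 and 1041. At the first 2 limits the median fold (2.02) became 4.41 and 2.10 and the median distance to the transcript end (2534 bp) 3286 and 2736 bp. The share of last exon peaks among coding exon peaks (6.25%) became 1.92% and 5.14%, with 6.48% for peaks up to 1 kb wide and 5.81% where the genes agree. The share at the q limit (0.887%) was 1.84% with at least 5 fragments, against 4.0% in internal exons. The zinc finger share (14.0%) was 11.1% with at least 5 fragments and 17.1% where the genes agree. The share of transcripts with the higher fold in the last exon (47.8%) was 50.5% with at least 5 fragments and 25.6% by the highest fold. Per gene and against only the exon before the last it was 47.4% each, both chosen after seeing the data. Contigs, wide peaks and single-exon transcripts were each included for the peak number, gene number, median fold and share at the q limit, and left these 4 within their counting interval or, for numbers, within 1.5 times. No paired analysis was possible because each group has 1 library and the result comes from no test. The GGACT search at summits and the limit to summits inside the exon were not run, since no genome or exon annotation was used here.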
